A study of Mus musculus with 6 samples.

Results

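Mitochondrial DNA carries its own genes, but the proteins that copy and transcribe it are encoded in the nucleus. The genes described here are 10 such factors and their nuclear regulators: Tfam, Tfb1m, Tfb2m, Polrmt, Polg, Nrf1, Gabpa, Ppargc1b, Pprc1 and Esrra. They were chosen by symbol as a fixed list, and all 10 were found among the 23951 genes of the count table. All 10 also passed the filter on low counts, among 12204 genes tested.

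Their RNA was measured in haematopoietic stem cells (HSCs) of mouse fetal liver, the cells that found the blood system before birth, in C57BL/6 mice. The 3 KO libraries came from RISP knockout cells and the 3 WT libraries from RISP wild type cells, where RISP, encoded by Uqcrfs1, is the iron-sulfur subunit through which respiratory complex III passes electrons. Neither fetal age, allele nor Cre driver is given in the sources used here, and nor is it stated that replicates were separate fetuses. The p-values therefore cover the variation among these 6 libraries, some of which may be technical. In bulk libraries, fewer cells of a type and less RNA per cell cannot be told apart.

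As background, POLRMT is the RNA polymerase of mitochondria. It starts transcription together with TFAM, which bends and packages the mitochondrial genome, and TFB2M, which helps to open the promoter. TFB1M, a relative of TFB2M, mainly methylates mitochondrial ribosomal RNA. POLG is the catalytic subunit of the mitochondrial DNA polymerase. The nuclear factors NRF1, GABP (whose DNA-binding subunit is encoded by Gabpa) and the orphan receptor ERR alpha (Esrra) act on promoters of nuclear genes for mitochondrial proteins, and Tfam, Tfb1m and Tfb2m are known targets of NRF1 and GABP. Coactivators of the PGC-1 family, which include the products of Ppargc1b and Pprc1, work through these factors.

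The promoters of 5 of the genes are shown because this network is wired through short motifs near the start site. Every promoter shown holds a match, while those of Tfb1m, Nrf1 and Pprc1 held none and are not shown. The 5 therefore do not stand for all members. Each sequence is the window from 250 bases before to 50 bases after the start, from RefSeq on GRCm38.p6, written 5′ to 3′ on the gene's strand. The counts were made on mm9, and the sequences were matched by symbol only. Capitals mark matches on either strand to GCATGCGC (core of the NRF1 motif), CCGGAAG (ETS motif bound by GABP), AAGGTCA (element bound by ERR alpha) or TGATGCAA (composite element bound by ATF4). No match overlapped another.
Tfam (chr10:71237995-71238294, minus strand): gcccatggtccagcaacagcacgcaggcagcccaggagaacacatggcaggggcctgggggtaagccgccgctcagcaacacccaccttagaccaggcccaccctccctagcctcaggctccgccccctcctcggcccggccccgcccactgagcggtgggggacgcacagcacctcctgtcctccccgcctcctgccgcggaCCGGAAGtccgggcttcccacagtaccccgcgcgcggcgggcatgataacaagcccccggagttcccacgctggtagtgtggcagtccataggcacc
Tfb2m (chr1:179546227-179546526, minus strand): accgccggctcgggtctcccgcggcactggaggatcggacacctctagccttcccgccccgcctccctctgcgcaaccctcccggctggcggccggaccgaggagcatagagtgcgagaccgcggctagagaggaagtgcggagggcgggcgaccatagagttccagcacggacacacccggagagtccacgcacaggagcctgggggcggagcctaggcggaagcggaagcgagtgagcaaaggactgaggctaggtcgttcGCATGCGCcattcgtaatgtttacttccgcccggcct
Polrmt (chr10:79746532-79746831, minus strand): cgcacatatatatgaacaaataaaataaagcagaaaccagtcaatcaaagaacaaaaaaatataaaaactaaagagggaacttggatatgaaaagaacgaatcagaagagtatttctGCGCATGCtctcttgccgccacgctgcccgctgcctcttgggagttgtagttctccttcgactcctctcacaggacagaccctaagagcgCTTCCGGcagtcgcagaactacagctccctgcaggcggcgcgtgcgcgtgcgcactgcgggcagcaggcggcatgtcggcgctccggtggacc
Polg (chr7:79466224-79466523, minus strand): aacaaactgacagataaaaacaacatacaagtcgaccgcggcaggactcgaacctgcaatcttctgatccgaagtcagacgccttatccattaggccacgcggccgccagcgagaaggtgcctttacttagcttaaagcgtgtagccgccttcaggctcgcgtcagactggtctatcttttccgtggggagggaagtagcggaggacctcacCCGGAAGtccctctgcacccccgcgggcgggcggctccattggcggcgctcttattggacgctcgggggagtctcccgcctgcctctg
Esrra (chr19:6921759-6922058, minus strand): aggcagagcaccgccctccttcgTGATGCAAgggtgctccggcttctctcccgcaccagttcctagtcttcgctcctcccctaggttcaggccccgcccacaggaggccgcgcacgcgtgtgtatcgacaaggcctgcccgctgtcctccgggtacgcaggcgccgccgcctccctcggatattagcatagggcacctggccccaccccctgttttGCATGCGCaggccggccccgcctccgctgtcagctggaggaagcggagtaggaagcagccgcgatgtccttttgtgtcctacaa

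The promoters of Tfam and Polg each held 1 match to CCGGAAG, that of Polrmt held 1 match to CCGGAAG and 1 to GCATGCGC, and that of Tfb2m held 1 match to GCATGCGC. The promoter of Esrra held 1 match to GCATGCGC and 1 to TGATGCAA. Of the other members, Gabpa held 1 match to CCGGAAG, while Tfb1m, Nrf1 and Pprc1 held no match to any of the 4 in these windows. No promoter window was available here for Ppargc1b, so it was not searched. Of all 32851 promoter windows of this length, 2.71% held GCATGCGC, 8.86% CCGGAAG, 4.72% AAGGTCA and 0.895% TGATGCAA. These windows include genes not tested here. Among the 9211 tested genes with a promoter, a closer match to the members, 575 held GCATGCGC, 1881 CCGGAAG, 354 AAGGTCA and 72 TGATGCAA. A match is a string of letters and was not tested for binding.

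The libraries held 12020128 to 14590844 counts in KO, against 10191354 to 13189329 counts in WT, and the ribosomal RNA gene Rn45s took 4.96% to 9.92% of them in KO, against 10.5% to 11.7% in WT. The targeted gene checked the labels, with 60, 51 and 39 counts of Uqcrfs1 in KO replicates 1 to 3, against 771, 1320 and 791 counts in WT replicates 1 to 3. The 11 stem and progenitor markers, none at 0 in any library, summed to 2234 to 2373 CPM in KO libraries, against 2563 to 3050 CPM in WT libraries, with 4 of 11 lower in KO, where CPM is the read count of a gene relative to the depth of its library, scaled by TMM. Marker sums of other cells also differed between the groups, though not every marker did. Lower means an edgeR Benjamini-Hochberg adjusted p under 0.05 here, met on that side by 4.99% of all genes tested. The 8 macrophage markers, none at 0 throughout a group, summed to 33.7 to 73.6 CPM in KO libraries, against 75.7 to 866.5 CPM in WT libraries. WT replicate 3 held the 866.5 CPM and stood apart, with the other WT libraries at 75.7 and 160.8 CPM. Of these 8 markers 0 were called by edgeR, 2 had an unadjusted p under 0.05, and DESeq2 called 2 and limma-voom 1 lower. Only 2 of the 8 had all KO libraries below all WT libraries, beside 14.5% of all genes tested. The 8 erythroid markers summed to 81.1 to 129.5 CPM in KO libraries, against 255 to 519 CPM in WT libraries, with 3 of the 6 tested lower and with Hbb-b1 and Hba-a1 at 0 counts in both groups. The groups overlapped for Tfrc and for Epor, whose log2 fold change was positive at 0.67 (edgeR adjusted p = 0.427). The 0 counts of Hbb-b1 hold for the count table alone. In the deposited RPKM table Hbb-b1 had 48.5, 0.00094 and 234 RPKM in KO replicates 1 to 3, against 373, 20.2 and 0.0012 RPKM in WT replicates 1 to 3, so the erythroid sums in CPM leave out globin RNA present in libraries of both groups. The 6 hepatoblast markers summed to 47.9 to 82.4 CPM in KO libraries, against 89.3 to 126 CPM in WT libraries, with 1 of the 5 tested lower, Ttr, which had 0 counts in KO. The groups overlapped for every other hepatoblast marker, including Dlk1, the largest part of each sum. What part these cells have in the values of the 10 genes was not tested.

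None of the 10 genes passed the threshold in KO against WT. At a Benjamini-Hochberg adjusted p under 0.05 (edgeR quasi-likelihood test on counts), 0 of 10 were called in either direction, where 11.4% of all genes tested were called. DESeq2 and limma-voom also called 0 of 10. At an unadjusted p under 0.05, 2 of 10 passed in edgeR, Polg and Pprc1, beside 25.0% of all genes, and 2 passed in DESeq2 and 3 in limma-voom. The log2 fold change was positive for 6 of the 10, beside 5864 of all 12204 genes tested. Its median was 0.26 over the 10 genes, against -0.02 over all genes tested.

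**Figure D1:**
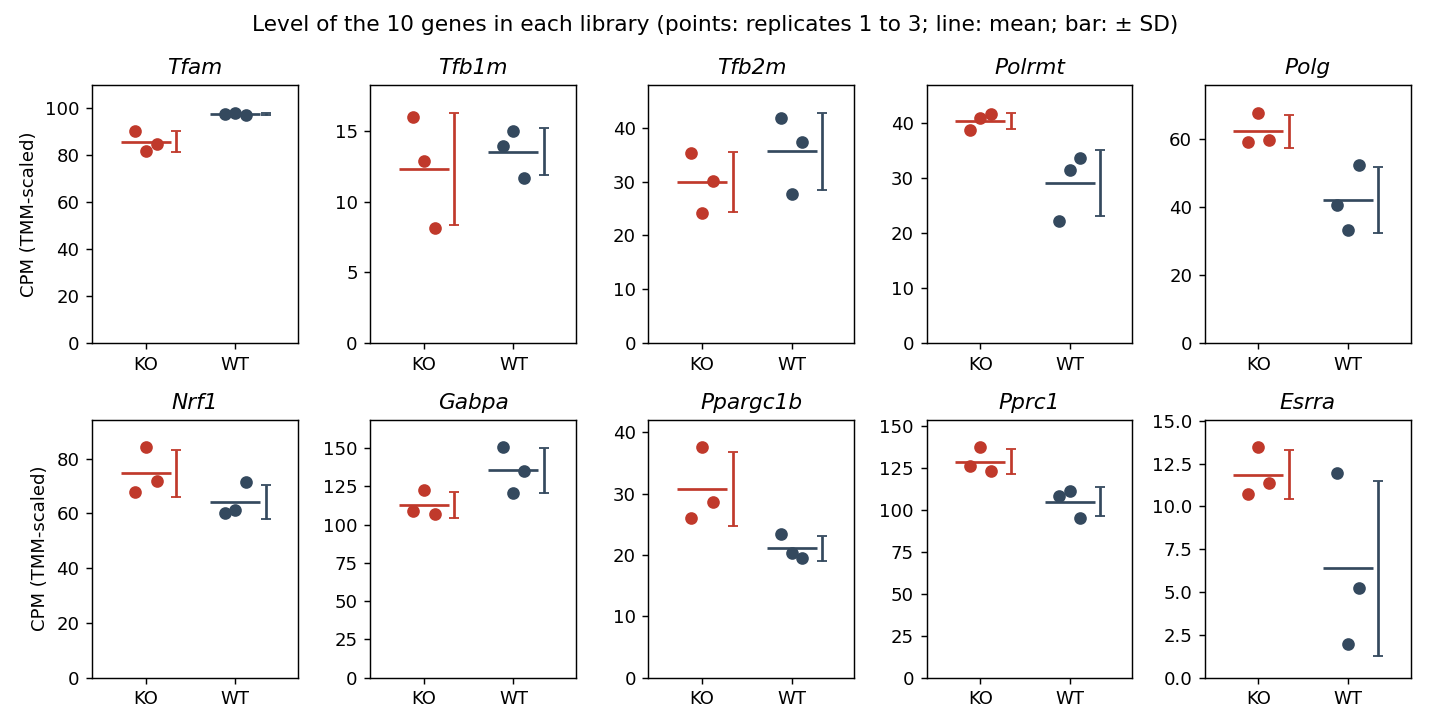
CPM (TMM-scaled counts relative to depth, vertical axes from 0) of the 10 genes in the 3 KO and 3 WT libraries, with each point a library, the line the mean and the bar ± SD. The KO libraries lie above all WT libraries for Polrmt, Polg, Ppargc1b and Pprc1 and below them for Tfam, and the groups overlap for the other 5 genes. Over all genes tested, 15.7% have KO above WT in this way and 14.5% have KO below.

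The transcription machinery of mitochondria was split in direction, and no change in it passed the test. Tfam had 90.4, 81.8 and 84.9 CPM in KO replicates 1 to 3, against 97.4, 98.0 and 97.1 CPM in WT replicates 1 to 3. All 3 KO libraries lay below all 3 WT libraries, as for 14.5% of all genes tested. The means were 85.7 ± 4.35 CPM in KO and 97.5 ± 0.453 CPM in WT (SD, n = 3 each). The log2 fold change of Tfam was -0.19 (SE 0.15, 95% interval -0.49 to 0.12, edgeR adjusted p = 0.474). In linear terms that interval runs from 0.710 to 1.09 times the WT level.

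Polrmt, the polymerase that TFAM serves, pointed the other way. It had 38.8, 40.8 and 41.6 CPM in KO libraries, against 22.2, 31.4 and 33.7 CPM in WT libraries. The groups did not overlap, with KO above, as for 15.7% of all genes tested. That is a log2 fold change of 0.47 (SE 0.24, 95% interval -0.02 to 0.96, edgeR adjusted p = 0.221). It was 0.31 without WT replicate 1, the lowest library.

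The difference between these partners was tested on its own as a ratio of counts within each library, which no library scaling can alter. The log2 ratio of Tfam over Polrmt was 1.22, 1.00 and 1.03 in KO replicates 1 to 3, against 2.13, 1.64 and 1.53 in WT replicates 1 to 3. Every KO library had a lower ratio than every WT library. The difference was -0.68 on the log2 scale. Its exact two-sided permutation p was 0.1, the smallest that 3 libraries against 3 allow, and 0.3 adjusted over the 3 ratios tested. The design could not take this below 0.05. A ratio of 2 genes does not remove effects of transcript length or GC content, and GC content was 44.9% for Tfam and 60.5% for Polrmt. With offsets for both, described below, the log2 fold changes were -0.08 for Tfam and 0.29 for Polrmt, nearer to each other than without. The offsets were fitted per library with no term for genotype. They therefore take out any genotype difference that tracks length or GC content, and the approach of the 2 values can follow from the fit alone. The ratio itself was not tested with these offsets.

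For the related pair Tfb1m and Tfb2m both estimates were negative, with overlapping groups. Tfb1m had 16.01, 12.9 and 8.12 CPM in KO libraries, against 13.9, 15.0 and 11.7 CPM in WT libraries, and the KO libraries spanned the whole WT range. Its log2 fold change was -0.13 (SE 0.39, 95% interval -0.95 to 0.68, edgeR adjusted p = 0.883), and it was 0.10 without KO replicate 3. Left-out libraries also moved it to -0.36 (KO replicate 1), -0.23 (WT replicate 3) and -0.05 (WT replicate 2). In the RefSeq annotation its span overlaps those of Tiam2 and Cldn20. Tfb2m had 35.4, 24.2 and 30.0 CPM in KO libraries, against 41.8, 27.7 and 37.5 CPM in WT libraries. The groups overlapped, and the log2 fold change was -0.25 (SE 0.25, 95% interval -0.78 to 0.27, edgeR adjusted p = 0.585). It was -0.12 without KO replicate 2 and -0.13 without WT replicate 1, but -0.39 without KO replicate 1 and -0.41 without WT replicate 2. The log2 ratio of Tfb1m over Tfb2m averaged -1.31 ± 0.51 in KO and -1.38 ± 0.43 in WT (SD, n = 3 each), a difference of 0.07 with an exact two-sided permutation p of 1.

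Polg, the mitochondrial DNA polymerase, came closest to the threshold. It had 59.1, 67.7 and 59.8 CPM in KO libraries, against 40.4, 33.2 and 52.3 CPM in WT libraries. All KO libraries lay above all WT libraries, as for 15.7% of all genes tested, with WT replicate 3 nearest to them. The means were 62.2 ± 4.77 CPM in KO and 42.0 ± 9.62 CPM in WT (SD, n = 3 each). Its log2 fold change was 0.57 (SE 0.20, 95% interval 0.14 to 0.99), which is 1.48-fold, with an unadjusted p of 0.0114 and an adjusted p of 0.0780 (edgeR). Without WT replicate 3 it was 0.76 and passed the threshold (adjusted p = 0.0306), while leaving out any of the other 5 libraries gave adjusted p-values from 0.121 to 0.249. WT replicate 3 had the highest Polg CPM of the WT libraries and the highest macrophage marker sum of all libraries. Any link between these was not tested. The span of Polg overlaps that of Fanci, a DNA repair gene, and without a stated strand setting of the counting their shared reads cannot be told apart. Fanci had a log2 fold change of 0.47 (edgeR adjusted p = 0.192). The 3 genes whose log2 CPM profiles over the 6 libraries, centred on their own means, lay closest to that of Polg were Spdl1, Rrp1b and Rab3gap2, at Euclidean distances of 0.074, 0.18 and 0.18. Their log2 fold changes were 0.52 (adjusted p = 0.233), 0.66 (0.0113) and 0.54 (0.0366) in edgeR. The profiles include the difference between KO and WT, so values near that of Polg follow from the choice of these genes.

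**Figure D2:**
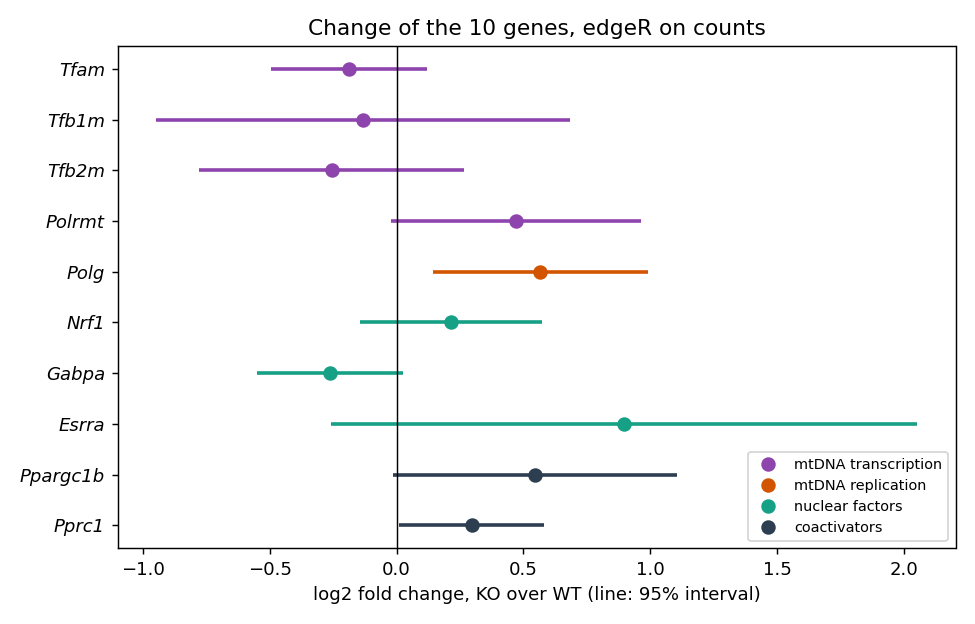
Log2 fold change of KO over WT (horizontal axis) for the 10 genes, grouped by role, with points for the edgeR estimate and lines for its 95% interval. The intervals of Polg and Pprc1 lie above 0, those of the other 8 genes include 0, and Esrra has the widest, from -0.26 to 2.05.

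The nuclear transcription factors did not pass either. Nrf1, which is a different gene from Nfe2l1 and Nfe2l2 in spite of shared nicknames, had 67.7, 84.1 and 72.0 CPM in KO libraries, against 60.1, 61.2 and 71.4 CPM in WT libraries. KO replicate 2 stood highest, and KO replicate 1 lay below WT replicate 3. Nrf1 had a log2 fold change of 0.22 (SE 0.17, 95% interval -0.14 to 0.57, edgeR adjusted p = 0.481), and 0.12 without KO replicate 2. Gabpa had 109, 122.5 and 107 CPM in KO libraries, against 150.4, 121 and 135 CPM in WT libraries. The groups overlapped through KO replicate 2 and WT replicate 2, and the log2 fold change was -0.26 (SE 0.14, 95% interval -0.55 to 0.02, edgeR adjusted p = 0.248). The span of Gabpa overlaps that of Atp5j, an ATP synthase subunit gene, which fell by 0.48 on the log2 scale (edgeR adjusted p = 0.0117). Atp5j had 2410 counts in KO replicate 1 and 2180 in WT replicate 1, against 1508 and 1501 for Gabpa. As for Polg, any shared reads cannot be told apart.

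Esrra was the lowest and least certain of the 10. It had 149, 202 and 144 counts in KO libraries, against 119, 21 and 68 counts in WT libraries. This was 10.7, 13.4 and 11.4 CPM in KO, against 11.9, 1.96 and 5.24 CPM in WT. The KO libraries lay close together, WT replicate 2 was far below them, and WT replicate 1 lay within the KO range. Esrra had a log2 fold change of 0.90 (SE 0.55, 95% interval -0.26 to 2.05, edgeR adjusted p = 0.340). It was 1.71 without WT replicate 1 and 0.47 without WT replicate 2, with adjusted p-values of 0.0929 and 0.652. Its span overlaps that of Trmt112, which had a log2 fold change of -0.20 (edgeR adjusted p = 0.457). Trmt112 had far more counts than Esrra, at 2030 in KO replicate 1 and 1433 in WT replicate 1. As for Polg, any shared reads cannot be told apart.

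Both coactivators had all KO libraries above all WT libraries in CPM, as did 15.7% of all genes tested, and neither passed the test. Ppargc1b, which encodes PGC-1 beta, had 26.0, 37.5 and 28.6 CPM in KO libraries, against 23.4, 20.4 and 19.5 CPM in WT libraries. KO replicate 2 stood apart, and the gap between KO replicate 1 and WT replicate 1 was small. In the deposited RPKM that gap closed, and the groups overlapped, with Ppargc1b at 3.87 RPKM in KO replicate 1, against 3.91 RPKM in WT replicate 1. Its log2 fold change was 0.54 (SE 0.27, 95% interval -0.01 to 1.10, edgeR adjusted p = 0.213), and the unadjusted p was 0.0557. Its span holds the microRNA gene Mir378a. Pprc1, the related coactivator PRC that is known to respond to serum, had 126, 138 and 123 CPM in KO libraries, against 109, 112 and 95.2 CPM in WT libraries. Its log2 fold change was 0.30 (SE 0.14, 95% interval 0.01 to 0.58, edgeR adjusted p = 0.182). The log2 ratio of Ppargc1b over Pprc1 averaged -2.08 ± 0.20 in KO and -2.32 ± 0.12 in WT (SD, n = 3 each). It differed by 0.23, with an exact two-sided permutation p of 0.2 and 0.3 adjusted over the 3 ratios, and by 0.13 without KO replicate 2. The third member of the family, Ppargc1a, had 30, 48 and 25 counts in KO libraries and 10, 100 and 36 counts in WT libraries. Its log2 fold change was -0.83 (SE 0.94, edgeR adjusted p = 0.645).

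Levels of different genes were compared per length, in the authors' deposited RPKM (reads relative to transcript length and library depth). In KO, Gabpa was highest at 30.3 ± 2.31 RPKM, followed by Tfam at 24.9 ± 1.15, Nrf1 at 19.7 ± 3.23, Tfb2m at 18.4 ± 3.58, Pprc1 at 17.7 ± 0.618 and Tfb1m at 11.6 ± 3.17 RPKM. Polg stood at 10.0 ± 0.904, Polrmt at 7.01 ± 0.555, Ppargc1b at 4.73 ± 0.867 and Esrra at 4.18 ± 0.815 RPKM (SD, n = 3). Neighbours whose KO libraries overlapped were Nrf1 with Tfb2m, Tfb2m with Pprc1, Tfb1m with Polg, and Ppargc1b with Esrra. In WT the order was the same except that Tfb2m, at 21.5 ± 4.12 RPKM, stood above Nrf1, at 16.6 ± 1.69 RPKM, and those neighbours overlapped too. Gabpa and Tfam were the top of the list in WT as well, at 36.2 ± 3.49 and 29.5 ± 1.27 RPKM, and Esrra the bottom at 2.04 ± 1.60 RPKM. The other WT neighbours that overlapped were Pprc1 with Tfb1m, Polrmt with Ppargc1b, and Ppargc1b with Esrra. In both groups every library had more Gabpa and Tfam per length than any had of the enzymes Polg and Polrmt.

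The direction of the 10 genes moved with the base composition of their transcripts. At a GC content under 45%, a value picked after seeing the data, the 4 genes all lay on the negative side: Tfam at 44.9%, Tfb1m at 42.6%, Tfb2m at 42.5% and Gabpa at 41.4%. The 6 at higher GC content were on the positive side: Nrf1 at 45.4%, Esrra at 50.3%, Polg at 52.8%, Pprc1 at 55.9%, Ppargc1b at 57.8% and Polrmt at 60.5%. Over all genes, the median log2 fold change was -0.14 in the lowest of 5 equal classes of GC content and 0.10 in the highest. Among the 386 genes in the same class of GC content and length as Polrmt and Pprc1, the median was 0.23 and 12.4% were called higher. Among the 390 genes in the class of Tfb1m and Tfb2m it was -0.22, in the class of Gabpa -0.11, in that of Polg 0.20 and in that of Ppargc1b 0.15. The class medians did not follow the direction of every member. For Esrra the class median was -0.075, against its own positive estimate, and Tfam and Nrf1, whose estimates have opposite signs, share a class with a median of -0.01. With offsets for length and GC content, an alternative chosen after seeing the data, the log2 fold changes were 0.29 for Polrmt, 0.17 for Pprc1, -0.08 for Tfam, -0.06 for Tfb2m, -0.13 for Gabpa, 0.32 for Nrf1 and 0.061 for Tfb1m, whose sign turned. Polg kept 0.47 (adjusted p = 0.148), Ppargc1b 0.42 and Esrra 0.94 under these offsets, and 0 of 10 were called. The offsets were fitted without genotype, so they also remove genotype differences that track length or GC content. They cannot tell such differences from a technical effect of composition. The part of composition in the directions was not tested further.

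**Figure D3:**
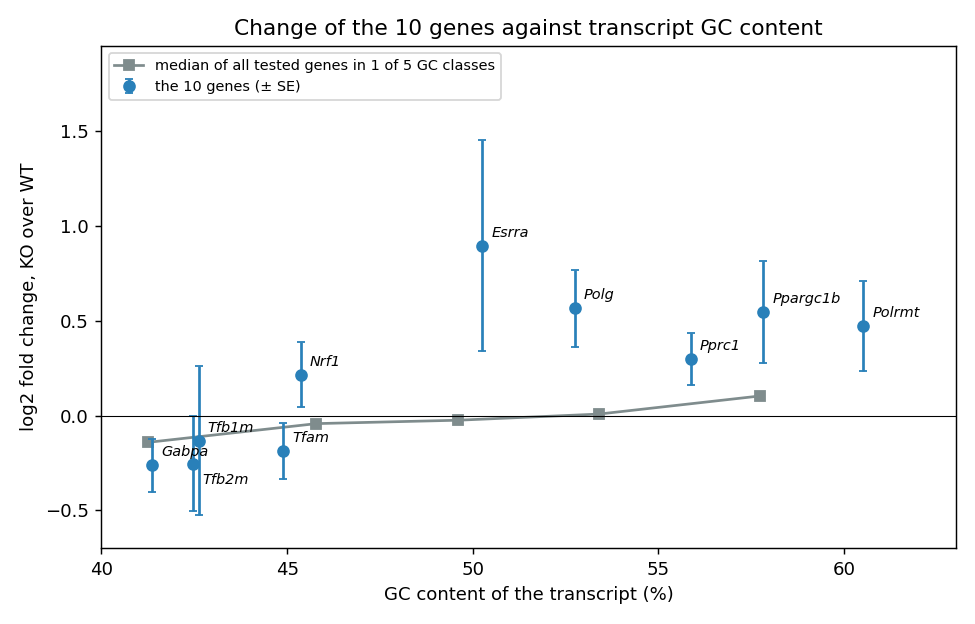
Log2 fold change of KO over WT (vertical axis, ± SE) against the GC content of the transcript (horizontal axis, %) for the 10 genes, with squares for the median of all tested genes in 5 classes of GC content. The 4 genes under 45% lie below 0 and the other 6 above it, while the class medians run from -0.14 to 0.10.

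Of the 7 calls in the wider pathway, 3 were in mitochondrial transcription and RNA processing. Another 3 were among coactivators, partners and upstream regulators, and 1 among textbook targets. Over all genes tested, 11.4% were called in either direction. In the list of mitochondrial transcription and RNA processing, 3 of 23 genes were higher and 0 lower, with a median log2 fold change of 0.24, beside 6.41% higher and 4.99% lower over all genes. Elac2, which cuts the 3′ ends of mitochondrial tRNAs, averaged 80.1 ± 10.98 CPM in KO and 46.2 ± 10.3 CPM in WT (SD, n = 3 each), a log2 fold change of 0.79 (SE 0.20, edgeR adjusted p = 0.0110). Tbrg4, an RNA-binding protein of the FASTK family, averaged 65.0 ± 8.57 CPM in KO and 35.05 ± 11.98 CPM in WT, with 0.89 (SE 0.23, adjusted p = 0.0157). Pnpt1, the polynucleotide phosphorylase, averaged 76.9 ± 18.1 CPM in KO and 49.3 ± 9.28 CPM in WT, with 0.64 (SE 0.20, adjusted p = 0.0450). These calls were near the threshold. The count was 1 without KO replicate 1, WT replicate 1 or WT replicate 3, 0 without KO replicate 2, and 0 with limma on log2(RPKM + 1), and Pnpt1 also missed the threshold with limma-voom (adjusted p = 0.0517).

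In the lists that supply and copy mitochondrial DNA no gene passed. Of 12 replication and repair genes, 0 were called by edgeR, DESeq2 or limma-voom and 0 had an unadjusted p under 0.05 in any of them. Over all genes tested, edgeR called 11.4%, and 25.0% had an unadjusted p under 0.05. The median of the 12 was 0.16 with 10 positive, beside a median of -0.02 and 5864 of 12204 positive over all genes. The smallest p was that of Exog, a mitochondrial nuclease, at 19.6 ± 12.3 CPM in KO and 10.8 ± 3.01 CPM in WT (log2 fold change 0.85, SE 0.42, edgeR adjusted p = 0.217). KO replicate 2 held 33.5 CPM of Exog, and without it the log2 fold change was 0.22. Of 11 genes of nucleotide supply, 0 were called and 0 had an unadjusted p under 0.05 in these 3 tools, with a median of -0.06. The smallest p was that of Tk2, the mitochondrial thymidine kinase, at 13.2 ± 5.89 CPM in KO and 20.0 ± 3.92 CPM in WT (log2 fold change -0.60, SE 0.37, edgeR adjusted p = 0.338). Leaving out KO replicate 3 gave -1.02 for Tk2, and leaving out KO replicate 2 gave -0.38.

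Among coactivators, partners and upstream regulators, 3 of the 19 genes tested were higher and 0 lower, beside 6.41% higher and 4.99% lower over all genes, with a median of 0.17 against -0.02 over all genes. Ncor1, a nuclear receptor corepressor, had 559, 605 and 623 CPM in KO libraries, against 306, 305 and 304 CPM in WT libraries. The groups were far apart beside their spread, and Ncor1 rose by 0.97 on the log2 scale (SE 0.10, edgeR adjusted p = 2.13e-06), with adjusted p-values of at most 7.96e-05 whichever library was left out. Ppard, a nuclear receptor for fatty acids, rose to 34.6 ± 6.91 CPM in KO, against 15.4 ± 4.40 CPM in WT (1.17, SE 0.29, adjusted p = 0.0123). It lost the call without KO replicate 3 (adjusted p = 0.0969) or WT replicate 1 (0.0524). Nfe2l1, a stress-responsive transcription factor of the endoplasmic reticulum, rose to 137 ± 24.2 CPM in KO, against 90.3 ± 13.2 CPM in WT (0.60, SE 0.16, adjusted p = 0.0175). It lost the call without KO replicate 2 (adjusted p = 0.155), KO replicate 3 (0.0502) or WT replicate 1 (0.0797). Both also missed the threshold with limma on log2(RPKM + 1), at adjusted p-values of 0.0847 and 0.117. Esrrb had 0 counts in all libraries, and Esrrg and Perm1 had at most 3 counts in any library, so none of these was tested.

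**Figure D4:**
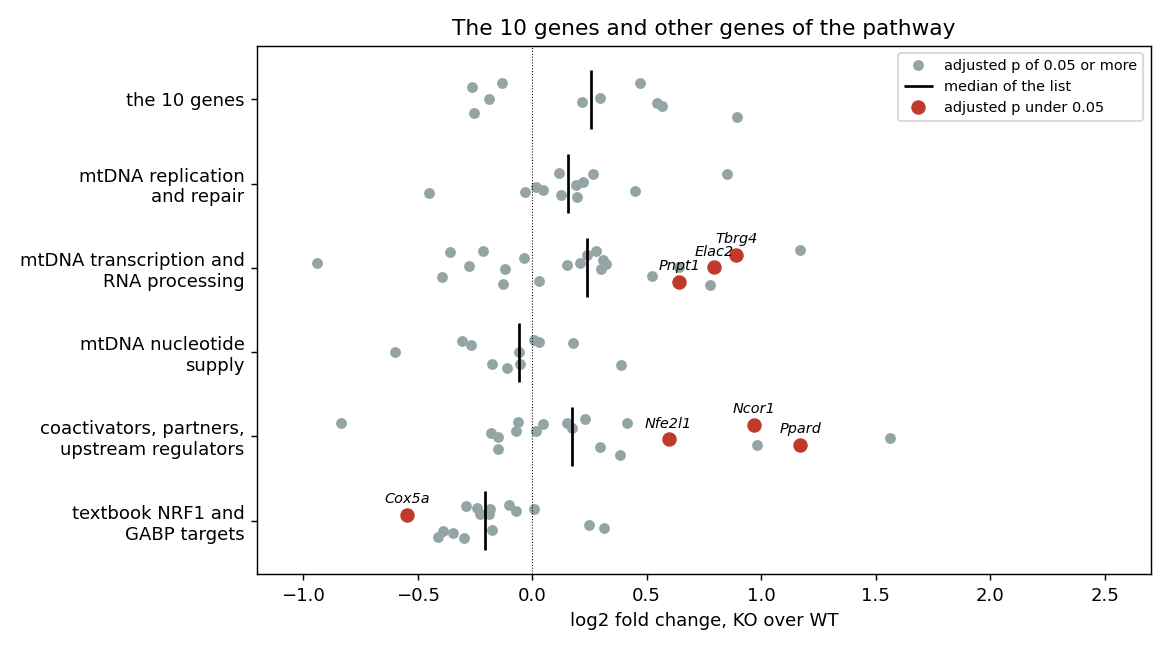
Log2 fold change of KO over WT (horizontal axis) of every tested gene in 6 lists, with red points for genes at an adjusted p under 0.05 and black lines for list medians (vertical jitter within a list carries no value). None of the 10 genes is red, 3 genes are red on the positive side in each of 2 lists, and Cox5a is red on the negative side.

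Of 16 textbook targets of NRF1 and GABP, 0 were higher and 1 lower in KO, a share of lower genes near the 4.99% over all genes. Their median was -0.21, against -0.02 over all genes, and 3 of 16 were positive, beside 5864 of all 12204. Most of the 16 are Cox genes of cytochrome oxidase, so these values mainly describe that complex. The call was Cox5a, a cytochrome oxidase subunit gene, at 70.6 ± 7.32 CPM in KO and 103 ± 15.7 CPM in WT (SD, n = 3 each). It fell by 0.55 on the log2 scale (SE 0.17, edgeR adjusted p = 0.0358), but by 0.29 with length and GC offsets (adjusted p = 0.315). Those offsets were fitted without genotype and can also remove a genotype difference. Cox5a also missed the threshold without any 1 library other than WT replicate 1, with adjusted p-values from 0.0635 to 0.153. The count of lower targets was 3 without WT replicate 1, 2 with DESeq2, and 0 without KO replicate 2, KO replicate 3, WT replicate 2 or WT replicate 3.

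Genes with each motif in their promoter were also described as a whole. Of the 9211 tested genes with a promoter in the RefSeq table, 6.72% were higher and 4.66% lower in KO, with a median log2 fold change of -0.02. Of the 575 with GCATGCGC, 9.04% were higher and 3.48% lower, with a median of 0.05. Of the 1881 with CCGGAAG, 6.49% were higher and 3.08% lower, with a median of 0.00. Of the 354 with AAGGTCA, 5.65% were higher and 3.95% lower, with a median of -0.01. The 72 genes with TGATGCAA, the ATF4 element that Esrra also holds, stood at 18.1% higher and 5.56% lower, with a median of 0.35. These shares are descriptions with no test, and they were not compared at matched base composition.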

How the data were processed

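Total RNA of 3 KO and 3 WT samples, in small amounts, was made into stranded libraries and read on an Illumina NextSeq500, per the labels' protocols. The authors deposited raw read counts per gene symbol and a table of RPKM values. TopHat and Cufflinks on mm9 were used, per the submitters' processing notes. Their versions, the counter, the annotation and the strand setting of the counting were not stated there.

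Genotypes were compared on the counts in R 4.3.3 by edgeR 4.0.16 (filterByExpr, TMM scaling, a robust quasi-likelihood test with a term for genotype alone), adjusted by Benjamini-Hochberg over 12204 genes, and tested on simulated data. The SE came from the F statistic, as the size of the log2 fold change over its root, and 95% intervals used the test's degrees of freedom. Ratios between members used a prior count of 0.5 and exact permutation. Alternatives used DESeq2 1.42.0, limma 3.58.1, the RPKM values and mgcv smooths of GENCODE transcript length and GC content, known for 99.5% of genes. No replicate pair agreed within counting noise (chi-square of 22.1 to 44.8 per degree of freedom).

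The members and lists were chosen with earlier results of these data known. Named genes were the members and, per other list, up to 4 genes past the threshold or else the gene with the smallest p, with the 3 genes closest in profile to the member of smallest p and Uqcrfs1. Overlapping genes and Ppargc1a were named by position or family.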

Additional observations from a re-analysis of the deposited data

How the results depend on the processing

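No member was lower in KO under any alternative. Over the 16 alternatives to the main analysis, 156 of 160 values of single members kept their direction and their side of the threshold. As no member was called in the main analysis, this needs only the same sign and no call. It does not measure how steady the sizes were: that of Esrra ran from 0.47 to 1.71 when 1 library was left out. The number of higher members was 0 to 1 when 1 library was left out, the 1 being Polg without WT replicate 3, and 0 under every other alternative. The log2 fold change of Tfb1m changed sign without KO replicate 3 (0.10), with length and GC offsets (0.061) and with these offsets and the replicate block (0.0088), and it ranged from -0.36 to 0.10 when 1 library was left out. The difference in the log2 ratio of Tfb1m over Tfb2m ranged from -0.13 to 0.36 when 1 library was left out and was negative without KO replicate 1, KO replicate 2, WT replicate 1 or WT replicate 3. The cause of these changes was not tested.

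Over all genes, leaving out 1 library gave 448 to 717 higher and 264 to 546 lower genes, against 782 and 609 with all 6. The lowest counts, 448 and 264, came without KO replicate 2. With limma on log2(RPKM + 1) there were 343 higher and 227 lower, with a pseudocount of 0.1 there were 331 and 210, and with length and GC offsets 402 were lower. The replicate numbers do not pair the libraries by the labels, and deviations from the group means correlated by 0.022, 0.012 and -0.0034 between same-numbered libraries. Not every library correlated best with its own number. With the replicate block, 0 of 10 members, 762 higher and 579 lower genes were called. Depth limits Esrra most, with 21 counts in WT replicate 2.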
